A study of Homo sapiens with 4 samples.

Results

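ATP-binding cassette (ABC) transporters were compared between arrays labelled as ARID1A wild type and ARID1A knockout. The 43 genes considered belong to subfamilies A to G, without the TAP peptide transporters, and every probe set (a group of probes read as 1 value) annotated with the single symbol of such a gene was taken. This gave 92 of the 54613 probe sets on the array, for 41 of the 43 genes. ABCA10 and ABCC6 had no probe set of this kind, and 2 probe sets that name a member beside another gene were left out. Each gene was represented by its brightest probe set (mean of 4 arrays), and the 41 members were tested among 19775 genes.

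The cells are labelled HuCCT1, an established human cholangiocarcinoma (bile duct cancer) line, and were profiled as total RNA on Affymetrix 3′ arrays, 2 per group. Per the labels' protocols, the line was bought from a cell bank and grown in RPMI medium with fetal bovine serum, and a lentivirus carrying Cas9 and 1 guide against ARID1A was used for the knockout, followed by puromycin and cloning by limiting dilution. The labels give neither a vector control nor a culture time, and do not say whether the arrays of a group are separate cultures, or whether the knockout arrays are 1 clone or several. All p-values therefore measure the spread between these arrays only, which may be technical.

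ARID1A, a DNA-binding subunit of the SWI/SNF chromatin remodelling complex and the gene the labels name as knocked out, read 8.55 and 8.61 on the wild-type arrays and 6.15 and 5.95 on the knockout-labelled arrays (limma adjusted p = 0.00014). Its difference was −2.53, and −1.60 with the mean of its probe sets. Over all genes the arrays correlated at 0.997 within the wild type, at 0.995 within the knockout label and at 0.920 to 0.921 between the groups. An identity check for sample mix-ups set 2 of the 4 arrays apart from the other 2. Loss of ARID1A and cells of another origin cannot be told apart as the source of any difference given here, and no result can be given without those arrays. Of 11 measured cholangiocyte markers, 9 lay above the array median on both wild-type arrays, and 9 on both knockout-labelled arrays. These were not the same 9, as SPP1 was below it in the wild type and CFTR under the knockout label. The summed log2 values of the 11 were 99.7 to 100.6 in the wild type and 96.7 to 98.0 under the knockout label. These sums cover opposite changes, as 3 of the 11 were called higher and 5 lower (limma, 21.5% and 17.2% of all genes). The keratin KRT7 was at 12.45 and then 10.13 (group means), KRT19 at 11.4 and then 10.5, the adhesion protein EPCAM at 12.1 and then 7.38, and the cadherin CDH1 at 10.8 and then 7.33. The secreted phosphoprotein SPP1 went from 2.71 to 11.3, the annexin ANXA4 from 8.87 to 11.8 and the keratin KRT8 from 10.5 to 11.3. CFTR, the chloride channel of biliary fluid secretion, which is itself an ABC protein (ABCC7) but not among the 43 genes, read 7.96 and 7.77 in the wild type and 3.52 and 3.40 under the knockout label. The summed values of 7 fibroblast markers were 34.5 to 34.7 and 24.5 to 26.0 (5 and 3 of 7 above the array median), of 7 leukocyte markers 23.1 to 23.2 and 20.4 to 22.0 (1 and 0 of 7), of 8 hepatocyte markers 35.3 to 35.7 and 34.1 to 36.9 (3 and 4 of 8), and of 6 endothelial markers 20.4 and 20.8 to 22.3 (2 of 6 in either group). By limma 2 fibroblast markers were called lower, COL1A1 (8.96 and then 4.20) and LUM (6.54 and then 1.31), and 0 higher. The hepatocyte sums also cover opposite changes, with 3 markers called higher and 1 lower. FGB (2.90 and then 5.09), ALB (1.79 and then 3.52) and TTR (4.73 and then 5.18) were higher, and SERPINA1 (10.7 and then 6.15) was lower. The endothelial marker TEK (3.61 and then 4.02) was called higher. The leukocyte marker CD14 was called lower, with 4.69 and 5.22 in the wild type and 3.04 and 2.98 under the knockout label. Another leukocyte marker, PTPRC, read 2.15 or less on every array. The part of these markers in the results was not tested, and in bulk RNA fewer expressing cells and less RNA per cell cannot be told apart.

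ABC proteins use ATP bound at paired nucleotide-binding domains to move substrates across a membrane. Several members of subfamilies B, C and G export drugs, bile constituents and glutathione or glucuronide conjugates, and in bile duct and liver cells they sit on the apical or basolateral surface. Subfamily A and part of G move phospholipids and sterols, subfamily D serves peroxisomes and lysosomes, some half-transporters of subfamily B lie in mitochondria, and subfamilies E and F lack membrane domains and act in translation.

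Across the family, members differed in both directions and in about the same share as other genes. Of the 41 measured members, 11 (26.8%) were higher and 7 (17.1%) were lower in the knockout-labelled arrays at an adjusted p under 0.05 (limma, adjusted over all 19775 genes). Over all genes 21.5% were higher and 17.2% lower, 38.7% in all. The members' median log2 difference (knockout-labelled minus wild-type mean) was 0.13, against 0.06 over all genes. The 2 groups did not overlap in 28 members (68.3%), against 66.4% of all genes. The shares were close to the background, so these counts say nothing particular about the family. Once genes under the 40th percentile of mean level were removed, 18 of 25 members and 63% of all genes passed. Among its members ABCB1 was the most raised, and ABCA5 and ABCG2 were the most lowered. The count of higher members was 7 without wild-type replicate 2.

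**Figure D1:**
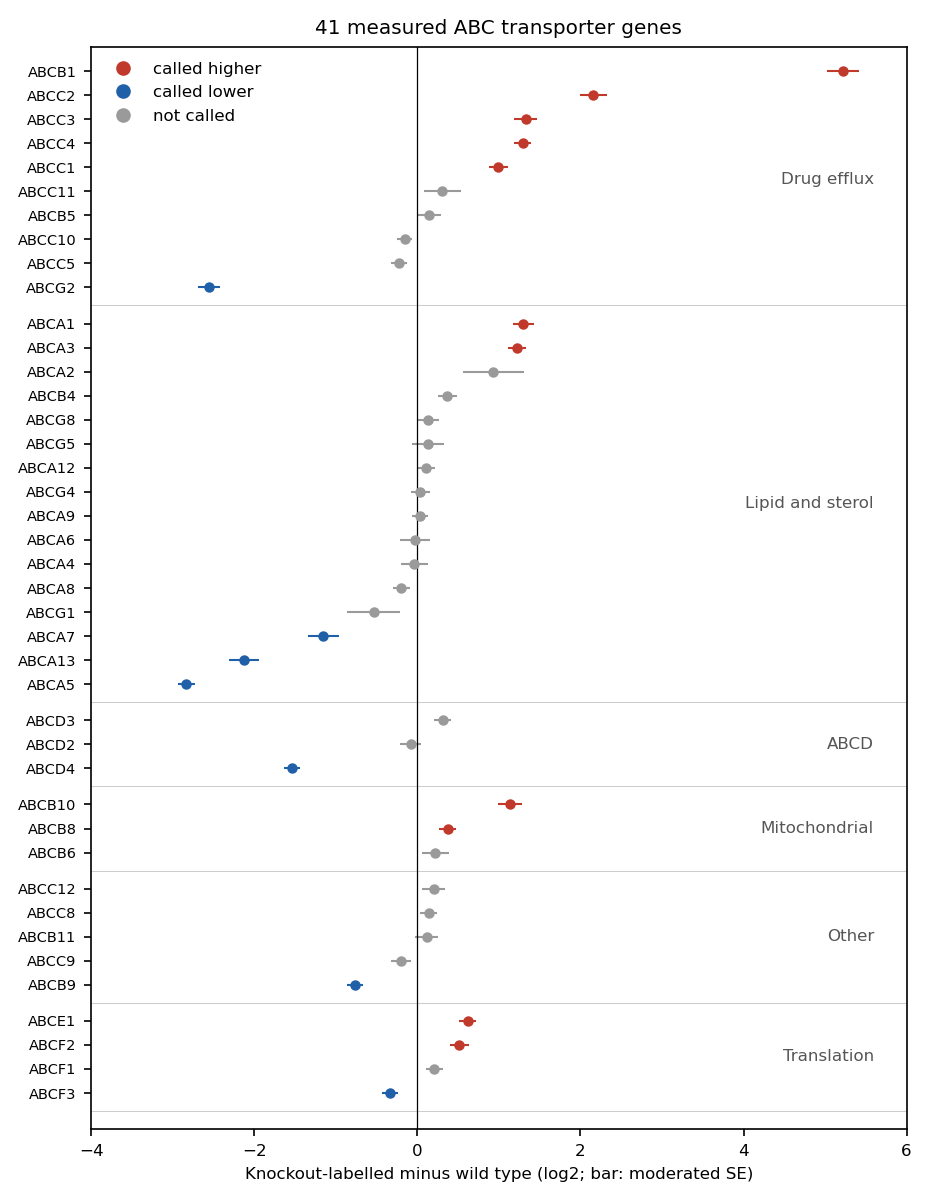
Difference between knockout-labelled and wild-type arrays (horizontal axis, log2) for each of the 41 measured genes, grouped by role, with bars for the moderated standard error. ABCB1 stands alone at 5.22, and the lipid group holds both raised and lowered genes around a cluster near 0.

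RMA values carry no detection call. As a guide to dim genes, 15 of the 41 members lay below the array median (3.99 to 4.03) on all 4 arrays, and a value there is a low rank on its array rather than a measured amount. Fold sizes that start from such values hold for the deposited scale alone. Levels of different genes come from different probes and are not ranked against each other.

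Of the 10 measured drug efflux transporters, 5 were higher (50%, against 21.5% of all genes) and 1 was lower (10%, against 17.2%) under the knockout label, with a median difference of 0.65, against 0.06 over all genes. The 6 called are 60% of the group, and only 1 of the 10 was below the array median on all 4 arrays. That total is near the 63% called when genes above the 40th percentile were fitted and adjusted on their own. Of the calls in that fit 54.3% were higher, while 5 of the 6 were higher here. The direction of so few calls was not tested, and it depends on the probe sets. Without probe sets whose probes can match several transcripts (_x_at and _s_at), ABCC3 was not called (−0.13) and ABCC5 was called lower (−0.81). ABCB1, which encodes P-glycoprotein, the multidrug exporter with the broadest substrate range, read 2.00 and 2.19 on the wild-type arrays and 7.57 and 7.06 on the knockout-labelled arrays. The wild-type arrays were both near the bottom of the scale and the knockout-labelled arrays both well above the array median, with no overlap. The difference was 5.22 ± 0.20 (SE), or 37.3-fold (limma adjusted p = 8.69e-05). Its second probe set moved the same way, from 2.41 and 2.75 to 4.72 and 5.74 (2.65, adjusted p = 0.0063 over all probe sets).

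ABCC2 (MRP2), the canalicular exporter of bilirubin glucuronides and other conjugates, read 3.90 and 3.56 in the wild type and 6.02 and 5.76 under the knockout label. It was the second most raised member, at 2.16 ± 0.16 (limma adjusted p = 0.00062), and as with ABCB1 only the knockout-labelled arrays lay above the array median. ABCG2 (BCRP), an exporter of drugs, urate and porphyrins and a marker of side-population cells, went the other way. It read 6.09 and 6.17 in the wild type and 3.74 and 3.43 under the knockout label, a difference of −2.55 ± 0.14 (adjusted p = 0.000219). For ABCG2 it was the knockout-labelled arrays that fell below the array median.

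The other 3 raised exporters were already bright in the wild type. ABCC3 (MRP3), which exports conjugates and bile salts at the basolateral surface, read 8.43 and 8.44 in the wild type and 9.94 and 9.60 under the knockout label (1.33 ± 0.14, limma adjusted p = 0.00178). This rests on the choice of probe set, since the difference was 0.60 with the mean of 5 probe sets and −0.13 (adjusted p = 0.691) without _x_at and _s_at probe sets, whose probes can match several transcripts. ABCC4 (MRP4), an exporter of cyclic nucleotides, prostaglandins and bile salts, read 8.57 and 8.42 and then 9.78 and 9.80 (1.29 ± 0.10, adjusted p = 0.000734). ABCC1 (MRP1), an exporter of glutathione conjugates and leukotriene C4, read 9.23 and 9.10 and then 10.26 and 10.07 (1.00 ± 0.12, adjusted p = 0.00245). A second ABCC1 probe set, 5.68 and 6.11 and then 6.62 and 6.30, did not pass (0.57, adjusted p = 0.11 over all probe sets). The mean of both gave 0.78 (adjusted p = 0.00443). By the brightest probe sets, the rises of these 3 genes, between 1.99-fold and 2.51-fold, were smaller than that of ABCB1 on this scale. No array of one group reached the range of the other.

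The remaining 4 exporters did not pass, with differences from −0.22 to 0.31 and limma adjusted p from 0.143 to 0.484. ABCC10 (MRP7), an exporter of taxanes and other lipophilic drugs, read 6.93 and 6.92 in the wild type and 6.76 and 6.77 under the knockout label. ABCC5 (MRP5), an exporter of cyclic nucleotides and nucleotide analogues, read 6.56 and 6.46 against 6.27 and 6.30. In both the groups lay apart, but by little with these probe sets. ABCC5 was called lower with the mean of probe sets (−0.45, limma adjusted p = 0.0144). It was also called lower without _x_at and _s_at probe sets (−0.81, adjusted p = 0.0133). ABCB5, known from melanoma and limbal stem cells, overlapped between the groups, with 4.48 and 4.20 against 4.39 and 4.58, and ABCC11 was below the array median on all 4 arrays.

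**Figure D2:**
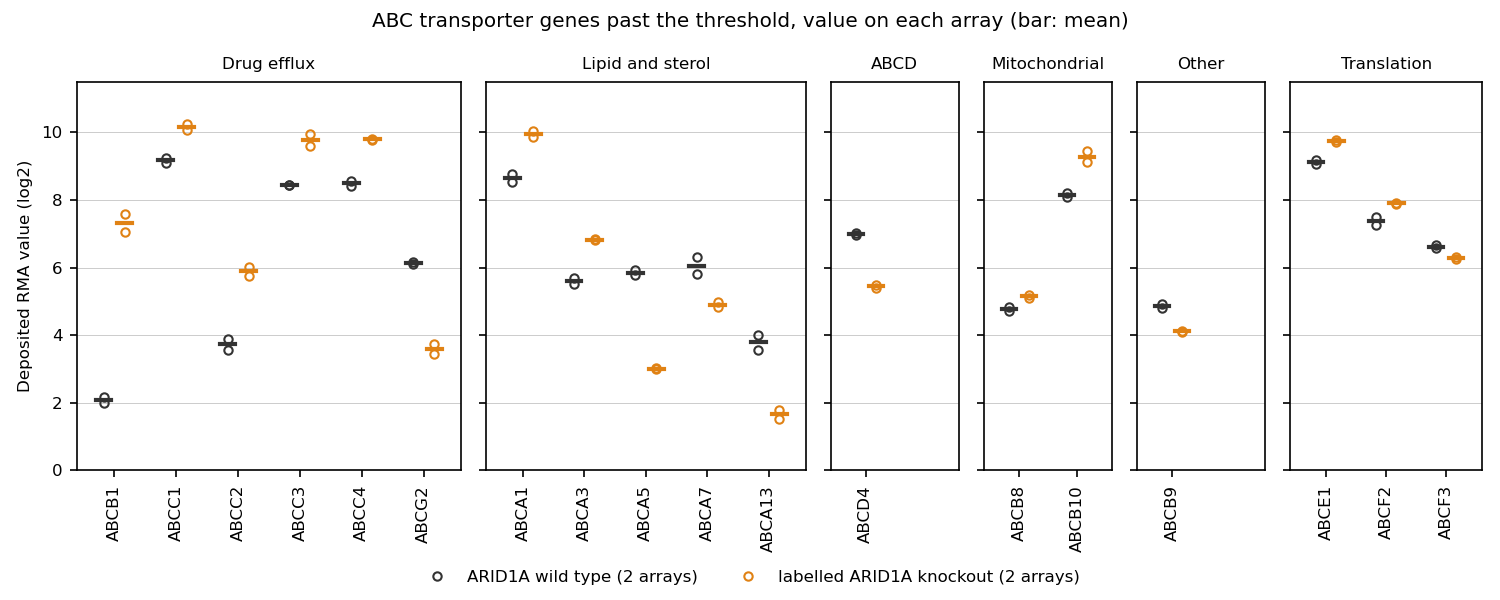
Deposited RMA value (vertical axis, log2) of the 18 members past the threshold on each of the 2 wild-type (dark) and 2 knockout-labelled (orange) arrays, with a bar at each group's mean. ABCB1 and ABCC2 start low in the wild type, while ABCC1, ABCC3 and ABCC4 are bright in both groups, and the groups of all 18 genes lie apart.

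Promoter sequence is shown for the 3 most raised and the 3 most lowered members that have a RefSeq window (GRCh38.p14), as the 250 bases before the start site. Where a gene has several start sites, the most downstream one was taken. Letters in capitals match 1 of 6 motifs searched on both strands, namely CACGTG (E-box), CCAAT (site of NF-Y), GGGCGG (GC box), TATAAA (matched as the TATA box), TGACTCA (AP-1 site) and TGACNNNGC (core of the antioxidant response element). The 3 drug efflux members come first, ABCB1 at chr7:87600885-87601134, minus strand, ABCC2 at chr10:99782390-99782639, plus strand and ABCG2 at chr4:88158640-88158889, minus strand.
ABCB1: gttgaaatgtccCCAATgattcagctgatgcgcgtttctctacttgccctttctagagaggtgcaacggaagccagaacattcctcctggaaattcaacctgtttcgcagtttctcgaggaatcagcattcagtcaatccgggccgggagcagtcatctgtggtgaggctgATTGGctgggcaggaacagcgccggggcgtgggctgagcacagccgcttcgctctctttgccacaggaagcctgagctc
ABCC2: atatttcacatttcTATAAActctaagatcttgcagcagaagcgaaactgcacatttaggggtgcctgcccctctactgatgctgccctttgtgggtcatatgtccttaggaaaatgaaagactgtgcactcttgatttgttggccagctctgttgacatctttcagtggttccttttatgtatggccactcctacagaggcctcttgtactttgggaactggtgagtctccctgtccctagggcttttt
ABCG2: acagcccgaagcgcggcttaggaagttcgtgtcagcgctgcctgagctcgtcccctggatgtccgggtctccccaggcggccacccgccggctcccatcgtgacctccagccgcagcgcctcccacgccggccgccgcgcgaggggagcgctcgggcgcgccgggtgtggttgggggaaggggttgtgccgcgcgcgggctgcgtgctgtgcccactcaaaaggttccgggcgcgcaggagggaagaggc
The ABCB1 window holds CCAAT letters starting 238 and 79 bases before the start, the nearer one on the opposite strand. The ABCC2 window holds TATAAA 236 bases before the start, and the ABCG2 window holds no match. GC content was 55.6% for ABCB1, 45.6% for ABCC2 and 73.6% for ABCG2, against a median of 57.6% over 27303 genes.

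The lipid and sterol group was split, with a median difference of 0.04. Of 16 measured members, 2 were higher (12.5%, against 21.5% of all genes) and 3 lower (18.8%, against 17.2%). ABCA1, which loads cholesterol and phospholipid onto apolipoprotein A-I, read 8.53 and 8.77 in the wild type and 9.87 and 10.02 under the knockout label. ABCA3, the phospholipid transporter of lamellar bodies, read 5.69 and 5.52 and then 6.85 and 6.80. Both rose by a like amount, 1.30 ± 0.13 for ABCA1 (limma adjusted p = 0.00147) and 1.23 ± 0.11 for ABCA3 (adjusted p = 0.000995).

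ABCA5, a lysosomal and endosomal transporter linked to cholesterol handling, was the most lowered member of the family. It read 5.93 and 5.77 in the wild type and 3.003 and 3.026 under the knockout label, a difference of −2.83 ± 0.11 (limma adjusted p = 8.44e-05). ABCA13, a very large and little studied member, read 4.001 and 3.58 and then 1.53 and 1.79 (−2.13 ± 0.18, adjusted p = 0.000937). All 4 of its values were under the array median, so its size is that of the deposited scale only. ABCA7, which moves phospholipids and takes part in phagocytosis, read 5.80 and 6.32 and then 4.84 and 4.97 (−1.15 ± 0.19, adjusted p = 0.00786). Its wild-type arrays lay 0.52 apart, and its call was lost without knockout replicate 1 (adjusted p = 0.0767) or knockout replicate 2 (adjusted p = 0.0662).

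The promoter windows of ABCA1 (chr9:104928156-104928405, minus strand), ABCA5 (chr17:69327134-69327383, minus strand) and ABCA13 (chr7:48171208-48171457, plus strand) follow in the same format.
ABCA1: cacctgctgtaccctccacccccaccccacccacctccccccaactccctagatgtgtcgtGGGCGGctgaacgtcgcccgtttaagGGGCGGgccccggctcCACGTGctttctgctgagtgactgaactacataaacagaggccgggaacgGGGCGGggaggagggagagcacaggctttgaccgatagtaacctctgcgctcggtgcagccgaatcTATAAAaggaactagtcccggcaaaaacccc
ABCA5: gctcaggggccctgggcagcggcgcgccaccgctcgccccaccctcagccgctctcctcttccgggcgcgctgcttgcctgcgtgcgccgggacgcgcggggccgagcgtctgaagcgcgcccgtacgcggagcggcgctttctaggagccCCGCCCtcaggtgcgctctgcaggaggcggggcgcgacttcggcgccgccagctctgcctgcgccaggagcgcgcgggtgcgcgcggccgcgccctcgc
ABCA13: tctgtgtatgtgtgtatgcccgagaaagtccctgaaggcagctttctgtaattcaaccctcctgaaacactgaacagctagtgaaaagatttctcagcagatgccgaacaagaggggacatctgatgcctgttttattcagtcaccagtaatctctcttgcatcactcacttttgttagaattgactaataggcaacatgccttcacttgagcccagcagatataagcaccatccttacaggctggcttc
ABCA1 holds an E-box 147 bases before the start, GC boxes at 189, 163 and 97 bases and a TATA box at 31 bases. ABCA5 holds a GC box at 99 bases, and ABCA13 holds no match. Windows were found for 35 of the 43 genes. The GC box was in 5 of 9 raised and 5 of 7 lowered members with a window, and in 41.3% of all windows. CCAAT was in 3 of the 9 raised and 1 of the 7 lowered members (32.7% of all windows), and TATAAA in 2 raised and 0 lowered (11.4%). The E-box was in 1 raised and 0 lowered (6.25%), the antioxidant core in 2 raised and 1 lowered (10.9%), and the AP-1 letters in 0 of either (4.42%). These are letter matches in a short window and say nothing of whether a factor binds.

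The other 11 lipid transporters did not pass, with differences from −0.53 to 0.93, and 9 of them were below the array median on all 4 arrays. ABCA2, an endolysosomal transporter, read 5.22 and 5.07 in the wild type and 6.65 and 5.51 under the knockout label (0.93 ± 0.37, limma adjusted p = 0.117). Its knockout-labelled arrays lay 1.13 apart, and without knockout replicate 2 its difference was 1.5. With all 4 arrays ABCA2 passed under an intensity trend (limma adjusted p = 0.0368) and with the mean of probe sets (0.37, adjusted p = 0.0484). Its other probe sets showed 0.17 and 0.01 and did not pass. ABCG1, which exports cholesterol to high-density lipoprotein, read 5.22 and 5.48 against 5.29 and 4.34 (−0.53 ± 0.33, adjusted p = 0.275). Here too knockout replicate 2 stood apart from replicate 1, by 0.95, and without knockout replicate 1 ABCG1 passed at −1.01 (adjusted p = 0.0338). ABCB4, the phosphatidylcholine floppase of bile, is the gene next to ABCB1 in RefSeq order and read 2.31 to 2.81 over the 4 arrays (0.37 ± 0.12, adjusted p = 0.0609). ABCA6, ABCA8 and ABCA9, which lie in a run with ABCA5 on chromosome 17, read between 2.004 and 2.59 on every array. ABCG5 and ABCG8, the half-transporters that together excrete sterols into bile, read 2.56 to 3.04 and 3.23 to 3.57.

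In subfamily D, 1 of 3 measured members was called (33.3%, against 38.7% of all genes). ABCD4, a lysosomal protein needed for the release of cobalamin (vitamin B12), read 7.01 and 6.96 in the wild type and 5.40 and 5.50 under the knockout label (−1.54 ± 0.10, limma adjusted p = 0.00038). The fall was 2.90-fold, and the arrays of each group lay within 0.10 of each other. The other ABCD4 probe set, at 2.65 to 3.23 and so below the array median on all arrays, showed 0.08 (adjusted p = 0.846 over all probe sets), and the mean of both gave −0.73. ABCD3 (PMP70), the peroxisomal importer of branched-chain and bile acid precursors, read 9.63 and 9.75 and then 9.97 and 10.04 (0.31 ± 0.10, adjusted p = 0.0691). A second ABCD3 probe set, 6.66 and 6.86 in the wild type, was called lower at 5.68 and 5.34 (−1.25, adjusted p = 0.00569 over all probe sets), so the 2 ABCD3 probe sets pointed opposite ways. ABCD2, a peroxisomal importer of very long chain fatty acids, was at the bottom of the scale, between 1.14 and 1.43.

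Among the mitochondrial half-transporters 2 of 3 were higher and 0 were lower. The 66.7% called compares with 38.7% of all genes. When genes above the 40th percentile were fitted and adjusted on their own, 63% of them and again 2 mitochondrial genes were called. ABCB10, an inner membrane protein tied to heme synthesis and biliverdin export, read 8.20 and 8.08 in the wild type and 9.11 and 9.44 under the knockout label (1.13 ± 0.14, limma adjusted p = 0.00312). Without wild-type replicate 2 it missed the threshold at 1.07 (adjusted p = 0.0546). ABCB8, part of an inner membrane potassium channel and of iron export, read 4.72 and 4.84 and then 5.10 and 5.20. With the mean of probe sets it did not pass (0.17, adjusted p = 0.23). Its small difference of 0.37 ± 0.10 (adjusted p = 0.0437) lost the call when any 1 array was left out (adjusted p 0.0783 to 0.221), with the lowest value without knockout replicate 1 and the highest without wild-type replicate 1. ABCB6, a porphyrin transporter that carries the Langereis blood group, read 6.45 and 6.44 against 6.89 and 6.45 (0.22 ± 0.17, adjusted p = 0.381). Only knockout replicate 1 stood above the rest. Its other probe set read 4.05 and 4.10 against 4.27 and 4.71 and did not pass (adjusted p = 0.163 over all probe sets). With the mean of probe sets ABCB6 was called higher (0.32, adjusted p = 0.0427).

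The 5 remaining transporters hold 1 called gene (20%, against 38.7% of all genes). ABCB9 (TAPL), a lysosomal peptide transporter, read 4.81 and 4.94 in the wild type and 4.11 and 4.11 under the knockout label (−0.76 ± 0.10, limma adjusted p = 0.00355). The other 2 ABCB9 probe sets did not pass (−0.22 and −0.14), the mean of all 3 gave −0.37 (adjusted p = 0.0275), and without _x_at and _s_at probe sets the call was lost (−0.14, adjusted p = 0.577). ABCC8, the sulfonylurea receptor of pancreatic potassium channels, was close to the array median at 4.10 and 4.01 against 4.13 and 4.25 (adjusted p = 0.375). ABCB11, the bile salt export pump of hepatocytes, ABCC9, the cardiac and vascular sulfonylurea receptor, and ABCC12 were below the array median on every array. The differences of the 4 that did not pass ran from −0.20 to 0.20.

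Of the 4 soluble members that act in translation, 2 were higher and 1 lower, all by less than 2-fold. The 75% called compares with 38.7% of all genes. When genes above the 40th percentile were fitted and adjusted on their own, 63% of them and again 3 translation genes were called. ABCE1, which splits ribosomes after termination, read 9.18 and 9.06 in the wild type and 9.70 and 9.77 under the knockout label (0.62 ± 0.10, limma adjusted p = 0.00751). ABCF2 read 7.27 and 7.50 and then 7.92 and 7.88 (0.51 ± 0.12, adjusted p = 0.0232). ABCF3, which in mice binds the antiviral protein OAS1B, read 6.57 and 6.65 and then 6.26 and 6.30 (−0.33 ± 0.10, adjusted p = 0.0479). ABCF1, which binds the initiation factor eIF2, read 8.43 and 8.57 against 8.73 and 8.68 and did not pass (0.21 ± 0.10, adjusted p = 0.195). The groups did not overlap in any of the 4, as in 66.4% of all genes, and the calls were fragile. With the mean of probe sets ABCE1 (0.27, adjusted p = 0.0816) and ABCF2 (0.23, adjusted p = 0.133) did not pass, nor did ABCF2 without _x_at and _s_at probe sets (0.15, adjusted p = 0.441). ABCF3 did not pass with arrays centred on their medians (adjusted p = 0.0715) or quantile normalized again (adjusted p = 0.083). Those of ABCF2 and ABCF3 were lost when any 1 array was left out (adjusted p 0.0594 to 0.134 and 0.0983 to 0.221), and that of ABCE1 without wild-type replicate 1 (adjusted p = 0.0556) or wild-type replicate 2 (adjusted p = 0.0759). For ABCF2 the lowest p was without wild-type replicate 2 and the highest without wild-type replicate 1, and for ABCF3 without knockout replicate 2 and wild-type replicate 2.

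Probe sets of 1 gene gave unequal answers in many members. Tested one by one over all 54613 probe sets, 17 of the 92 member probe sets (18.5%) were higher and 9 (9.78%) lower, 26 in all, where 13.9% and 13.0% of all probe sets were, 26.9% in all. Of 12 called members with several probe sets, 2 had every probe set called one way, ABCB1 and ABCC4, and 10 had at least 1 that did not pass. No member had probe sets called in both directions. ABCC3 had 5 probe sets, at 1.33, 1.25, 0.36, 0.20 and −0.13, of which the 2 largest passed. ABCA1 had 4, at 1.30 and 1.14 for the 2 that passed and 0.33 and 0.17 for 2 dim ones. For ABCA5 the other probe set read 1.54 to 1.96 on all arrays and showed −0.29 (adjusted p = 0.161), and for ABCE1 the other, at 9.36 to 9.47, showed −0.09 (adjusted p = 0.639). With all probe sets averaged per gene, the differences of ABCC4 (0.86), ABCA1 (0.73), ABCA5 (−1.56) and ABCA13 (−1.11) kept their calls but shrank by over 1.5 times. Besides ABCD3, ABCC5 was not called by its brightest probe set but had another called lower (−0.81, adjusted p = 0.0205). The probe sets of ABCG1 ran from −0.53 to 1.23, and 0 of 4 passed. A fit of genes without _x_at and _s_at probe sets called ABCG1 higher (1.23, limma adjusted p = 0.0434). That is opposite in sign to its brightest probe set, so the direction for ABCG1 depends on the probe set.

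**Figure D3:**
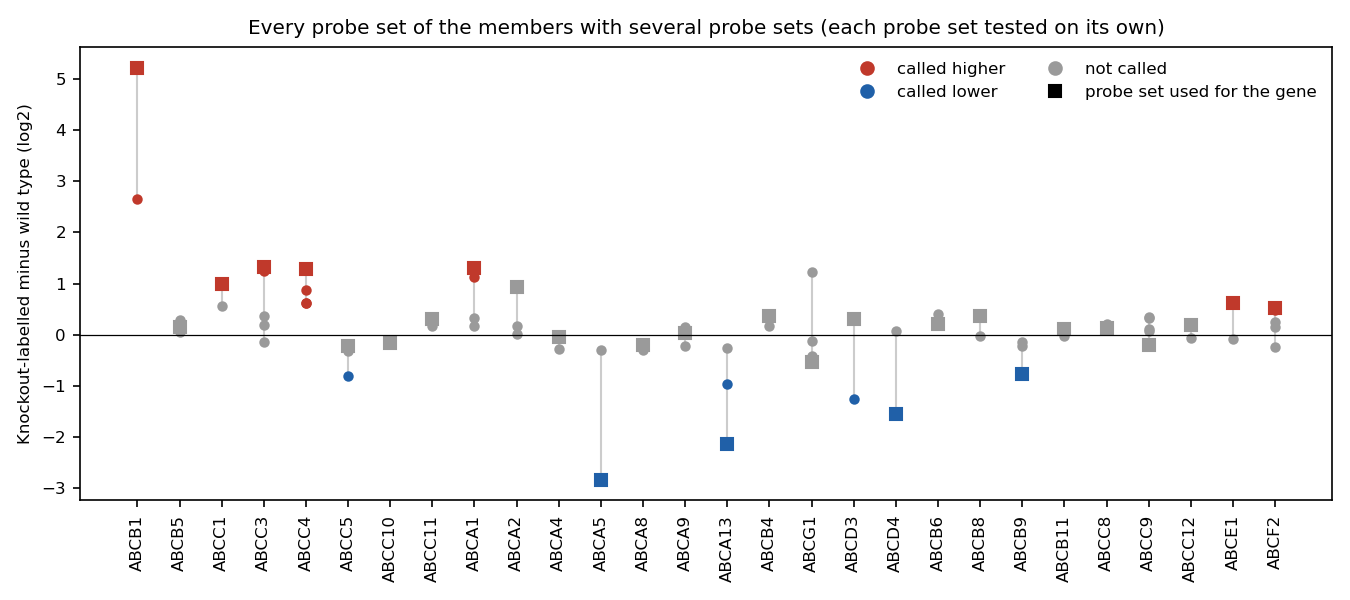
Difference between knockout-labelled and wild-type arrays (vertical axis, log2) of every probe set of the 28 members with several, each tested on its own, with a square for the probe set that stood for the gene. Both ABCB1 probe sets are high, while the probe sets of ABCA5, ABCD3, ABCD4 and ABCG1 spread widely.

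Genes that regulate, feed or partner ABC transporters also went both ways. The share of called genes ran from 31.3% to 81.8% over the 8 lists, against 38.7% of all genes. Of genes above the 40th percentile, fitted and adjusted on their own, 63% were called. In 7 of the lists at most 2 genes lay below the array median on all arrays, so the latter share is the closer background. Of 16 measured nuclear receptors and other regulators, 5 were higher and 4 lower, with a median of 0.04. NR5A2 (LRH-1), a receptor of bile acid and cholesterol genes, read 3.39 and 3.60 in the wild type and 6.87 and 6.72 under the knockout label (3.30 ± 0.12, limma adjusted p = 8.63e-05). AHR, the aryl hydrocarbon receptor, read 9.11 and 9.03 and then 7.03 and 6.88 (−2.12 ± 0.11, adjusted p = 0.000188). These are the largest differences of the list, and they have opposite signs.

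Uptake carriers and non-ABC exporters had 8 of 19 higher and 5 lower, with a median of 0.08. SLCO1B3, a hepatic uptake carrier of bile salts and drugs, read 9.58 and 9.56 in the wild type and 2.80 and 2.72 under the knockout label (−6.81 ± 0.10, limma adjusted p = 1.35e-05). SLC47A1 (MATE1), a proton-coupled exporter of organic cations, read 2.68 and 3.42 and then 7.41 and 7.44 (4.38 ± 0.25, adjusted p = 0.000279). In both, the arrays of one group were bright and those of the other below the array median. Of 21 conjugating enzymes, whose products the ABCC exporters carry, 6 were higher and 5 lower (median 0.12). GSTP1, a glutathione transferase, read 9.57 and 9.77 and then 4.31 and 5.13 (−4.94 ± 0.28, adjusted p = 0.000275). SULT1A1, a phenol sulfotransferase, read 6.06 and 6.43 and then 10.75 and 10.49 (4.37 ± 0.17, adjusted p = 9.22e-05), but a probe set without the suffix _s_at or _x_at gave 0.03 (adjusted p = 0.921).

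Of 16 sterol acceptor and trafficking genes, 2 were higher and 3 lower (median −0.02), led by NPC2, the lysosomal cholesterol binder (−2.002 ± 0.09, limma adjusted p = 0.000153), and OSBP, an oxysterol-binding lipid exchanger (−1.27 ± 0.11, adjusted p = 0.000862). Of 17 peroxisomal genes, 6 were higher and 2 lower (median 0.10). ACOX2, an oxidase of branched fatty acids and bile acid intermediates, differed by 3.30 ± 0.32 (adjusted p = 0.00138) and ACBD5, a membrane tether, by 2.16 ± 0.10 (adjusted p = 0.000156). Of 17 heme and iron-sulfur genes, 6 were higher and 7 lower (median −0.04). SLC25A37 (mitoferrin-1), a binding partner of ABCB10, differed by −2.40 ± 0.13 (adjusted p = 0.000248), opposite to ABCB10. UROS, a heme synthesis enzyme, differed by 1.46 ± 0.13 (adjusted p = 0.000942), but by −1.23 (adjusted p = 0.00252) without _x_at and _s_at probe sets and 0.43 with the mean of probe sets.

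Of 11 channel and scaffold partners, 3 were higher and 5 lower (median −0.001). PDZK1, a scaffold that binds ABCC2 and other apical transporters, read 2.41 and 1.83 in the wild type and 6.50 and 6.18 under the knockout label (4.22 ± 0.23, limma adjusted p = 0.000232). SLC33A1, an acetyl-coenzyme A transporter, differed by −1.35 ± 0.09 (adjusted p = 0.000472). Of 11 ribosome rescue and initiation genes, 7 were higher and 2 lower (median 0.41). HBS1L, a rescue factor that works with PELO and ABCE1, differed by 1.02 ± 0.16 (adjusted p = 0.00609), with no call without wild-type replicate 1 (adjusted p = 0.0596), without knockout replicate 2 (adjusted p = 0.0564) or without _x_at and _s_at probe sets (0.24, adjusted p = 0.391). EIF2S1, the alpha subunit of eIF2, differed by −1.31 ± 0.09 (adjusted p = 0.000549), and by −0.82 without _x_at and _s_at probe sets. With the mean of probe sets HBS1L differed by 0.40, NR5A2 by 2.17 and SULT1A1 by 2.88.

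**Figure D4:**
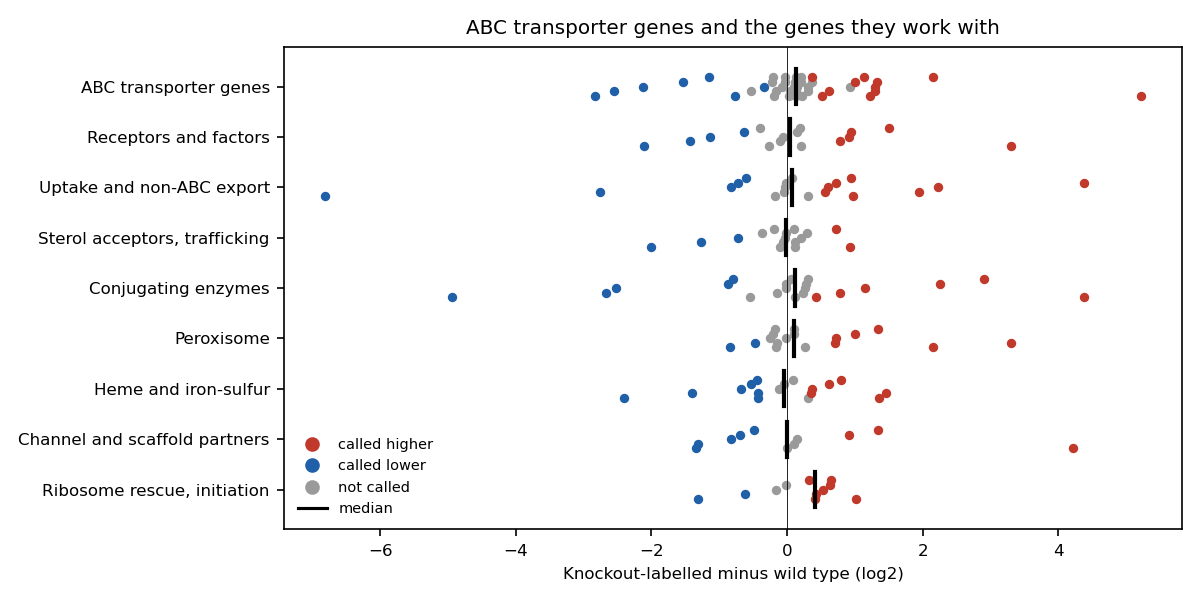
Difference between knockout-labelled and wild-type arrays (horizontal axis, log2) for the ABC transporter genes and the measured genes of 8 lists of regulators, carriers and partners, with a black bar at each median. Every list holds genes called higher and genes called lower, and medians lie between −0.04 and 0.41.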

How the data were processed

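The deposited table holds log2 values that the authors made with RMA in the affy package (no version given), per the submitters' processing notes. RMA corrects background, quantile normalizes and summarises each probe set, which removes overall brightness differences between arrays. Depth does not apply, and the 4 arrays limit the precision. Names came from the annotation of the array platform (41091 with 1 symbol, 1801 with several, 11721 with none), and 41037 matched RefSeq on GRCh38.p14 by gene ID. Groups came from the sample titles. The groups were compared by limma (version 3.58.1, R version 4.3.3; lmFit, eBayes, no covariate, no filter on dim genes), with Benjamini-Hochberg adjustment over all genes, or over all probe sets where stated, and a threshold of 0.05. In simulated data with 200 of 19775 genes changed, the fit called 92% of 4-fold and 48% of 2-fold changes, and 9 unchanged genes. Far more genes, 7657, were called in the real data, so these rates need not hold there. A member that did not pass may still differ by 2-fold. Named were all called members, up to 3 uncalled members per group above the array median on at least 1 array, by highest mean, and the 2 most changed called genes of each list. Other members were named after their values were seen. Members, lists and groups were chosen with earlier results of these data known. Alternatives changed the variance model, the probe set per gene, the dim filter, the normalization, a replicate block and the arrays included. Some listed genes had no probe set of their own and were not analysed here.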

Additional observations from a re-analysis of the deposited data

How the results depend on the processing

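Of the 18 called members, 10 kept their call and direction in every setting that tested them: ABCB1, ABCC1, ABCC2, ABCC4, ABCG2, ABCA1, ABCA3, ABCA5, ABCA13 and ABCD4. ABCA13 was not tested after removal of genes under the 40th percentile, nor ABCD4 without _x_at and _s_at probe sets. The latter setting tested 35 members. Besides ABCD4, it did not test ABCA7, ABCB10, ABCC10, ABCE1 and ABCF3, which have only such probe sets. It left 7 genes higher and 4 lower, and 9 probe sets higher. The subfamily D, mitochondrial, other and translation groups had 0 calls each, partly because called genes were not tested. It turned ABCC3 to −0.13, ABCG1 to 1.23 and UROS to −1.23. With the mean of probe sets, ABCG1 turned to 0.0398 and ABCD3 to −0.47, subfamily D had 2 calls and translation 1. Subfamily D also had 2 calls with an intensity trend, a 40th percentile filter or renewed quantile normalization. The added call was ABCD3 each time, but its direction differed. It was lower with the mean of probe sets (limma adjusted p = 0.0192). It was higher with the trend (0.31, adjusted p = 0.00406), the filter (0.31, adjusted p = 0.03) and renewed normalization (0.34, adjusted p = 0.0459). The mitochondrial group had 1 call with the trend. The replicate block, on numbers that share only a label (correlation of same-numbered deviations −0.10), left 16 of 18 member calls, and 1 mitochondrial call. The crossed block, chosen after seeing the data, left 16.

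Leaving out 1 array gave 7 to 10 higher and 5 to 6 lower genes, 2 to 14 higher and 3 to 6 lower probe sets, 0 to 1 mitochondrial and 0 to 1 translation calls, and ABCB6 ran from −0.0014 without knockout replicate 1 to 0.4421 without knockout replicate 2. The cause was not tested. With 1 array left in a group, that array was assumed to vary like the other group.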

Other observations

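The arrays of a group were close for most members. The median gap between the 2 arrays was 0.13 in the wild type and 0.15 under the knockout label. In the wild type 1 member, ABCA7, had a gap over 0.5, and under the knockout label 5 did, namely ABCA2 (1.13), ABCG1 (0.95), ABCC11 (0.56), ABCB1 (0.52) and ABCA6 (0.51).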
